A study of Equus caballus with 28 samples.

Results

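The miRNAs of equine embryonic tissues were compared with those of the yolk sac (YS) fluid drawn from the same conceptuses. The comparison used every library labelled embryo or yolk sac, which was 5 libraries of embryonic tissue and 5 of YS fluid, 10 of the 28 libraries of the series. The other libraries, of endometrium and uterine fluid (UF), were used only as a reference. All conceptuses came from Warmblood mares inseminated with semen of a single stallion and were recovered 13 days after ovulation. The fluid was drawn out of each conceptus with a needle, the capsule was taken off, and what remained was the embryonic tissue. The labels call the fluid samples yolk sac, while the study's methods describe aspirated fluid, and they are called YS fluid here. Embryos and fluids carry the numbers 1 to 5, and the same number was taken as the same conceptus. RNA of YS fluid was extracted with a kit for serum and plasma and RNA of the embryos with a kit for tissue, so that fluid against tissue cannot be told apart from kit against kit. Each sample held RNA of many cells, and a lower level from fewer cells of a type cannot be told apart from less RNA per cell.

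miRNAs are short RNAs that bind the messenger RNAs of target genes through a short seed near their 5′ end and lower the output of those genes. They are cut from hairpins, either arm of which may yield a mature miRNA, and neighbouring hairpins are often transcribed together as one cluster. Outside cells, miRNAs are carried in vesicles or bound to proteins and lipoproteins, where they withstand degradation. The early horse conceptus is a sphere of trophectoderm and endoderm around a large fluid-filled yolk sac, and it moves through the uterus inside its capsule while the mare comes to recognise the pregnancy.

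The YS fluid libraries were shallow. They held between 4352 reads (YS fluid 4) and 14531 reads (YS fluid 5) on miRNAs, against between 28204 and 44768 reads in the embryos. A count of 3 reads was taken as the least that a library can show. Before normalization it stood for 206 to 689 CPM (reads scaled to a common library total) in YS fluid and for 67.0 to 106 CPM in the embryos. On the normalized scale used below it stood for 159 CPM in YS fluid 5 to 500 CPM in YS fluid 4. In the embryos it stood for 75.3 to 149 CPM on that scale. These limits cover counting error only, because PCR copies are not independent molecules. Some libraries stood apart. Embryo 1 had 36.3% of its reads on predicted miRNAs, against between 5.02% and 8.67% in the other embryos. Among 106 known miRNAs with at least 50 reads over the 10 libraries, YS fluid 2 was far above the other fluids in 13, YS fluid 4 in 12 and YS fluid 3 in 8, while no embryo was so in more than 1. Results that rest on embryo 1 or on YS fluid 2 are therefore also given without them. Unless stated otherwise, levels below are CPM after TMM normalization of the 10 libraries and differences are embryo minus YS fluid on the log2 scale, with their standard error (SE) and the false discovery rate (FDR) of edgeR's quasi-likelihood test.

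At least 1 read was found for 285 known miRNAs, of which 257 were seen in an embryo, 247 in YS fluid and 219 in both. All 5 embryos shared 141 of them, all 5 fluids 106 and all 10 libraries 96. Only 2 of the 38 known miRNAs seen in embryos alone were above the limit that the pooled 53989 reads of YS fluid allow. They were miR-301b-3p, with 17 reads in 4 embryos and at least 1.70-fold above the pooled limit of YS fluid, and miR-32, with 10 reads and only just above it. For the others, whether they were missing from YS fluid was not detectable at this depth, and 20 of the 38 rested on a single read. Of the 28 known miRNAs seen in YS fluid alone, 18 rested on a single read. The best covered was miR-485-3p, of an imprinted miRNA cluster, with 20 reads in 3 fluids and none in the 179448 reads of the embryos, at least 22.2-fold higher in YS fluid. YS fluid 2 held 18 of the 20 reads, and the 2 reads in the other fluids are too few for such a bound. Where depth allowed a view, most embryonic miRNAs were in the fluid too, since 69 known miRNAs had a mean in the embryos above the limit of each YS fluid library and 66 of these had a read in all 5 fluids.

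When every library was scaled down to 4352 reads, YS fluid held more kinds of miRNA than the embryos, 177 ± 6.40 against 153 ± 12.04 (SD, n = 5 each; two-sided exact permutation test, p = 0.0159). With known miRNAs alone, scaled down to 4120 reads, the numbers were 134 ± 9.10 against 120 ± 6.33 (exact permutation p = 0.0159). The share of reads taken by the 10 most abundant miRNAs was 59.7% ± 7.72 in the embryos and 58.7% ± 3.31 in YS fluid, a difference smaller than the spread between libraries (exact permutation p = 0.825). Embryo 1 had 46.8%. Among known miRNAs alone it was 66.9% ± 2.67 and 62.0% ± 3.70 (exact permutation p = 0.0556). With 5 libraries against 5, the smallest p that this test can give is 0.00794.

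A miRNA was called differentially expressed where its FDR did not exceed 0.05 and the groups differed 2-fold or more. Of 259 miRNAs with a read in at least 5 libraries, 91 were called (35.1%), 57 higher in the embryos and 34 higher in YS fluid. Among the 180 known miRNAs tested, 53 were called (29.4%), of which 33 were higher in the embryos (18.3%) and 20 in YS fluid (11.1%). The levels of 41 of the 180 did not overlap between the groups (22.8%), among them 37 of the 53 called. With the conceptus number as a block, 54 miRNAs were called, 53 of them among the 91, and the known miRNAs called were 43 (23.9%). The count also fell when single libraries were left out, to 50 without YS fluid 1, 49 without YS fluid 3 and 53 without YS fluid 5, and to 60, 46, 48 and 40 without both samples of number 1, 2, 4 or 5. Without embryo 1, 72 were called and 55 of them were known. The split of the calls between the 2 directions depended on the scaling and the method. Scaling by library totals alone moved the median difference of all miRNAs by -0.61 and turned the split to 40 higher in the embryos and 55 higher in YS fluid, and RLE size factors moved it by -0.16. The split was 33 and 30 with known miRNAs alone, 41 and 41 with DESeq2, 23 and 21 with libraries thinned to the smallest, and 66 and 74 in a single fit of 28 libraries.

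The most abundant miRNA differed between the compartments. In YS fluid it was miR-92a in each of the 5 samples, and in each of the 5 embryos it was miR-21. miR-92a belongs to the miR-17 group, which promotes proliferation and survival. It took between 17.6% and 31.3% of the reads of YS fluid and between 1.35% and 2.89% of the reads of the embryos. miR-92a was chosen by its rank in these same libraries, so no test of its share is given. Its level was 119366, 169768, 203775, 172614 and 241572 CPM in YS fluids 1 to 5 and 33790, 25784, 14854, 20308 and 30021 CPM in embryos 1 to 5. Every fluid was above every embryo. The means, 181419 ± 45227 and 24951 ± 7550 CPM (SD, n = 5), differed 7.27-fold (log2 difference -2.86, SE 0.27, FDR 4.88e-05). Scaling by library totals gave -3.50.

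miR-21, which promotes growth and survival of many cell types, was the most abundant known miRNA of the embryos. It stood at 183356, 308044, 125090, 159791 and 121514 CPM in embryos 1 to 5 and at 42331, 69873, 56292, 55870 and 48877 CPM in the fluids. The groups did not overlap, and embryo 2 was the highest of the 10 libraries. The difference was 1.72 (SE 0.27, FDR 0.00101), which is 3.29-fold.

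**Figure D1:**
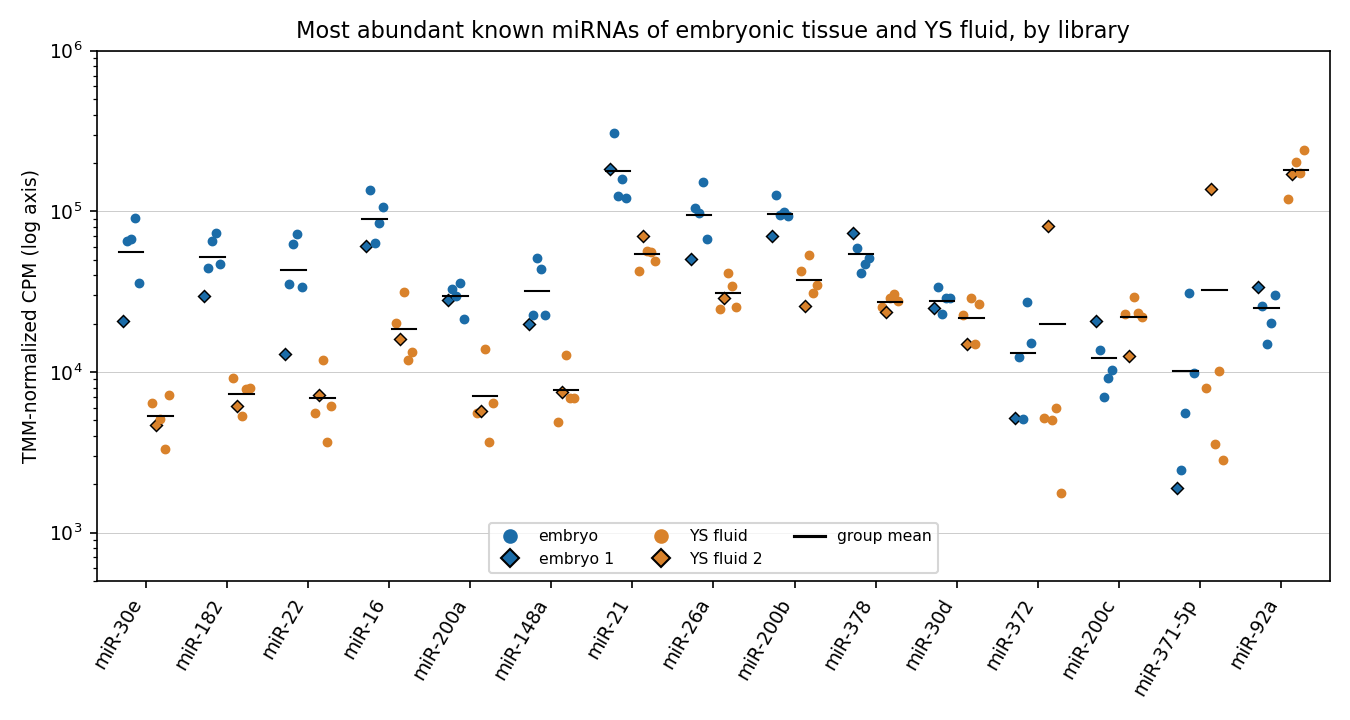
TMM-normalized CPM (log axis) of the 15 known miRNAs that were among the 10 most abundant of either group, with 1 point per library for embryonic tissues and YS fluid. miR-92a is the only one of them with every fluid above every embryo, while miR-30e, miR-182 and miR-16 have every embryo above every fluid.

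Most other abundant miRNAs of the embryos were also higher there than in YS fluid. miR-30e, of a family that limits epithelial to mesenchymal change, stood at 20835, 65156, 66980, 90941 and 35869 CPM in the embryos and at 6371, 4680, 5111, 3336 and 7217 CPM in the fluids, without overlap (10.4-fold, log2 difference 3.38, SE 0.41, FDR 0.000179). miR-182 averaged 51908 ± 17191 CPM in the embryos and 7283 ± 1525 CPM in YS fluid (SD, n = 5), with a difference of 2.83 (SE 0.30, FDR 8.3e-05). Both had their lowest embryo in embryo 1. miR-22 differed by 2.66 (SE 0.47, FDR 0.00221) and miR-16, a brake on cyclins and the cell cycle, by 2.28 (SE 0.33, FDR 0.000615). miR-148a, which targets DNA methyltransferases, differed by 2.05 (SE 0.37, FDR 0.00231), and miR-26a, which targets EZH2, by 1.61 (SE 0.30, FDR 0.00241). None of these groups overlapped. miR-378, a regulator of energy metabolism, was at 54404 ± 12264 CPM in the embryos and 27243 ± 2791 CPM in YS fluid, just under 2-fold (difference 1.00, SE 0.22, FDR 0.00538), and was not called.

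The miR-200 family keeps cells epithelial by repressing the ZEB factors, and its members did not all differ in the same way. Of the 6 epithelial miRNAs tested, 3 were called higher in the embryos and none in YS fluid, against 18.3% and 11.1% of all known miRNAs. miR-200b averaged 96525 ± 20274 CPM in the embryos and 37498 ± 10883 CPM in YS fluid (SD, n = 5; difference 1.36, SE 0.24, FDR 0.00221), a call that was lost under library totals, where the difference was 0.70. miR-200a stood at 28038, 32816, 29830, 35713 and 21261 CPM in the embryos and at 5532, 5683, 13945, 3669 and 6368 CPM in the fluids, and YS fluid 3 was far above the other fluids (difference 2.06, SE 0.37, FDR 0.00221). miR-141 stood at 1354, 2597, 6318, 11194 and 3188 CPM in the embryos and at 838, 334, 511, 834 and 425 CPM in YS fluid, again without overlap (3.07, SE 0.64, FDR 0.0043). In contrast, miR-200c had a mean of 12171 ± 5385 CPM in the embryos and 22057 ± 6032 CPM in YS fluid (-0.86, SE 0.35, FDR 0.0709). It passed as higher in YS fluid without embryo 1 (-1.25, FDR 0.00662). miR-429 was at 8294 ± 1937 and 4137 ± 2506 CPM (FDR 0.078).

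Some abundant miRNAs of the conceptus were not called in either direction. The miR-302 and miR-367 hairpins form a cluster typical of pluripotent cells, and none of their 5 miRNAs was called (median difference -0.23). Their summed level was 9281 to 43174 CPM in the embryos and 10340 to 59650 CPM in YS fluid, while pregnant UF and endometrium held 4.82 and 0.93 CPM before normalization. miR-371-5p and miR-372 belong to another cluster of early embryonic cells and germ cells, and they were carried by single libraries. miR-371-5p stood at 1885, 2439, 5528, 30859 and 9915 CPM in the embryos and at 7963, 138074, 3578, 10173 and 2813 CPM in the fluids. miR-372 stood at 5172, 12448, 5103, 27292 and 15186 CPM in the embryos and at 5197, 81574, 5038, 6004 and 1751 CPM in the fluids. YS fluid 2 was the highest of the 10 libraries for both, and embryo 4 the highest embryo. With all libraries the differences were -1.68 (SE 1.12, FDR 0.248) and -0.61 (SE 0.93, FDR 0.62), and without YS fluid 2 they were 0.80 (FDR 0.429) and 1.66 (FDR 0.0537). miR-30d, at 27850 ± 4236 and 21586 ± 6432 CPM, differed by 0.37 (SE 0.26, FDR 0.282).

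Of the known miRNAs with at least 50 reads, 25 were called higher in the embryos without overlap between groups and 7 in YS fluid. miR-30e, miR-182 and miR-22, described above, were among the first 12 of the 25 by size of the difference, which were led by miR-96. It stood at 96.7, 285, 516, 1684 and 577 CPM in the embryos and at 83.8, 0, 0, 0 and 53.1 CPM in YS fluid, from 85 and 2 reads. The difference was 4.14 (SE 1.01, FDR 0.0121), and the ratio of pooled reads per library total was 12.8, with a 95% counting interval from 3.43 to 107. miR-96, miR-183 and miR-182 are made from a single cluster known from sensory and other epithelia, and all 3 were higher in the embryos. miR-183 stood at 677, 824, 2855, 4012 and 1381 CPM there and at 83.8, 134, 219, 334 and 159 CPM in the fluids (3.41, SE 0.71, FDR 0.0043). Embryo 4 was the highest of the 10 libraries for all 3.

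miR-767-5p comes from an X-linked cluster shared with miR-105 and known from germ cells. Its levels were 2224, 1837, 5194, 2823 and 5321 CPM in the embryos and 419, 201, 73.0, 334 and 371 CPM in YS fluid (12.3-fold, difference 3.62, SE 0.62, FDR 0.00185). It was almost absent from the uterus, with no read in the endometrium of the 5 pregnant mares. miR-767-3p, the other arm, was also called (2.81, FDR 0.03, but FDR 0.0592 with the conceptus block), from 22 and 1 reads, and miR-105 was not (FDR 0.197).

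miR-15a, which shares its seed and cell cycle targets with miR-16, had 63 reads in the embryos and 2 in YS fluid (3.64, SE 0.72, FDR 0.00388), a ratio of 9.48 with a counting interval from 2.52 to 80.0. miR-362-5p had 83 and 3 reads (3.38, SE 0.88, FDR 0.0153), a ratio of 8.32 with an interval from 2.75 to 41.2. The fluid side of both rested on too few reads to place the fold change closely. miR-340-3p differed by 3.05 (SE 0.88, FDR 0.0239), miR-335, which lies in the imprinted MEST gene, by 2.75 (SE 0.81, FDR 0.0271), and miR-19a, of the miR-17 group, by 2.67 (SE 0.71, FDR 0.0163). The calls of miR-335, miR-340-3p, miR-362-5p and miR-19a were lost when some single libraries or numbers were left out.

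**Figure D2:**
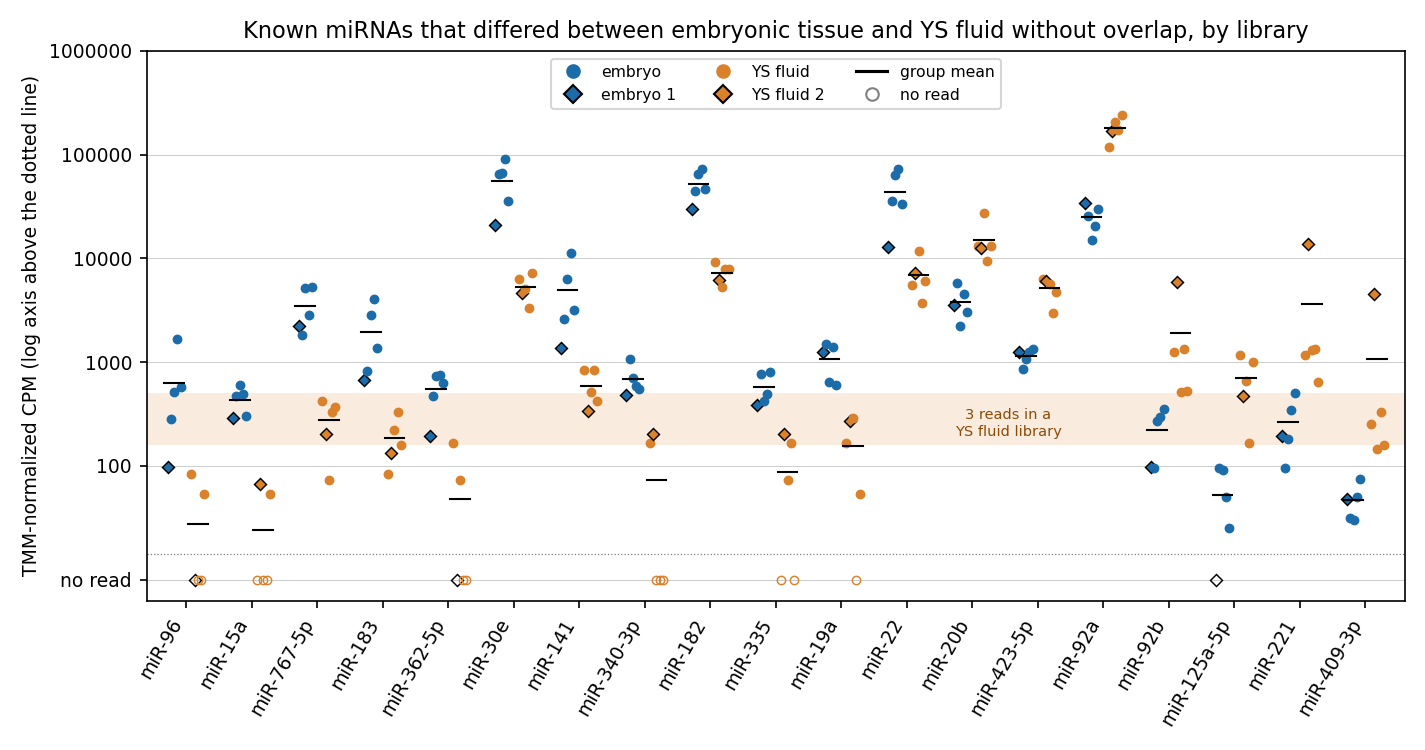
TMM-normalized CPM of the called miRNAs with at least 50 reads and no overlap between groups, with 1 point per library for embryonic tissues and YS fluid on a log axis and libraries without a read placed below the dotted line. Among the miRNAs higher in YS fluid, YS fluid 2 lies far above the other fluids for miR-409-3p, miR-221 and miR-92b.

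Of the 7 known miRNAs higher in YS fluid by the same rule, miR-92a, miR-423-5p, miR-20b and miR-125a-5p did not rest on a single fluid. miR-125a-5p, which acts in differentiation and immune signalling, stood at 1174, 468, 657, 167 and 1008 CPM in YS fluid and at 0, 95.03, 91.1, 49.5 and 25.1 CPM in the embryos, from 50 and 8 reads (-3.58, SE 0.75, FDR 0.0043). miR-423-5p, an abundant miRNA of blood plasma, averaged 5160 ± 1358 CPM in YS fluid and 1149 ± 191 CPM in the embryos (SD, n = 5; -2.16, SE 0.40, FDR 0.00231). miR-20b, another member of the miR-17 group, stood at 13077, 12437, 27306, 9506 and 13267 CPM in YS fluid and at 3529, 5828, 2217, 4507 and 3037 CPM in the embryos (-1.98, SE 0.40, FDR 0.00421). YS fluid 3 was far above the other fluids for miR-20b, but all 5 fluids were above all embryos.

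For the other 3, YS fluid 2 set the size of the difference. miR-221, which together with miR-222 represses the cell cycle inhibitor CDKN1B, stood at 1174, 13640, 1314, 1334 and 637 CPM in YS fluid and at 193, 95.03, 182, 347 and 502 CPM in the embryos. The difference was -3.75 (SE 0.95, FDR 0.0143), and -2.04 (FDR 0.0265) without YS fluid 2. miR-222 lost its call both without that fluid (FDR 0.307) and with the block (FDR 0.188). miR-92b, which shares the seed of miR-92a, went from -3.06 (SE 0.82, FDR 0.0163) to -1.93 (FDR 0.0445) without YS fluid 2, and had an FDR of 0.0543 with the block. miR-409-3p went from -4.36 (SE 1.10, FDR 0.0142) to -1.98 (FDR 0.027).

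miR-409-3p belongs to the imprinted DLK1-DIO3 region, which holds one of the largest groups of mammalian miRNA genes. These miRNAs are expressed from the maternal chromosome in embryo and placenta. Of 51 miRNAs of this region in the files, 32 had a read in the 10 libraries and 10 passed the filter. Of these 10, 8 were called, all higher in YS fluid, against 11.1% of all known miRNAs tested. The median difference of the 10 was -4.33, against 0.07 for all known miRNAs tested. Several of the 10 passed the filter mainly through YS fluid, such as miR-543 with 25 reads against 1 and miR-382 with 26 against 2, so that this count and median are partly set by the filter and are given as a description. Of all 32 with a read, 31 had a higher share of the pooled reads in YS fluid than in the embryos. Without YS fluid 2 there were 18, with 9 higher in the embryos and 5 without a read. The same counts were not made over all known miRNAs. The reads came mainly from a single sample. YS fluid 2 held 487 of the 577 reads of the region in YS fluid (84.4%), and it was the highest of the 10 libraries for 30 of the 32 miRNAs. The summed level was 3102, 32563, 1679, 2502 and 796 CPM in YS fluids 1 to 5 and 387, 443, 273, 1635 and 527 CPM in embryos 1 to 5, so that YS fluid 5 overlapped the embryos. miR-432 stood at 838, 7021, 438, 667 and 106 CPM in the fluids and between 0 and 198 CPM in the embryos (-4.83, SE 1.31, FDR 0.018). miR-543 had 25 reads in YS fluid and 1 read in the embryos (-4.98, SE 1.05, FDR 0.00458). Without YS fluid 2, 4 of the 10 miRNAs were called, where 51 of 185 known miRNAs were, and the median difference was -1.87. With the conceptus block, 6 were called, where 43 of 180 known miRNAs were. The same fluid was also the highest for miR-371-5p, miR-372, miR-221, miR-222 and miR-92b, as given above, and what sets it apart was not tested.

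**Figure D3:**
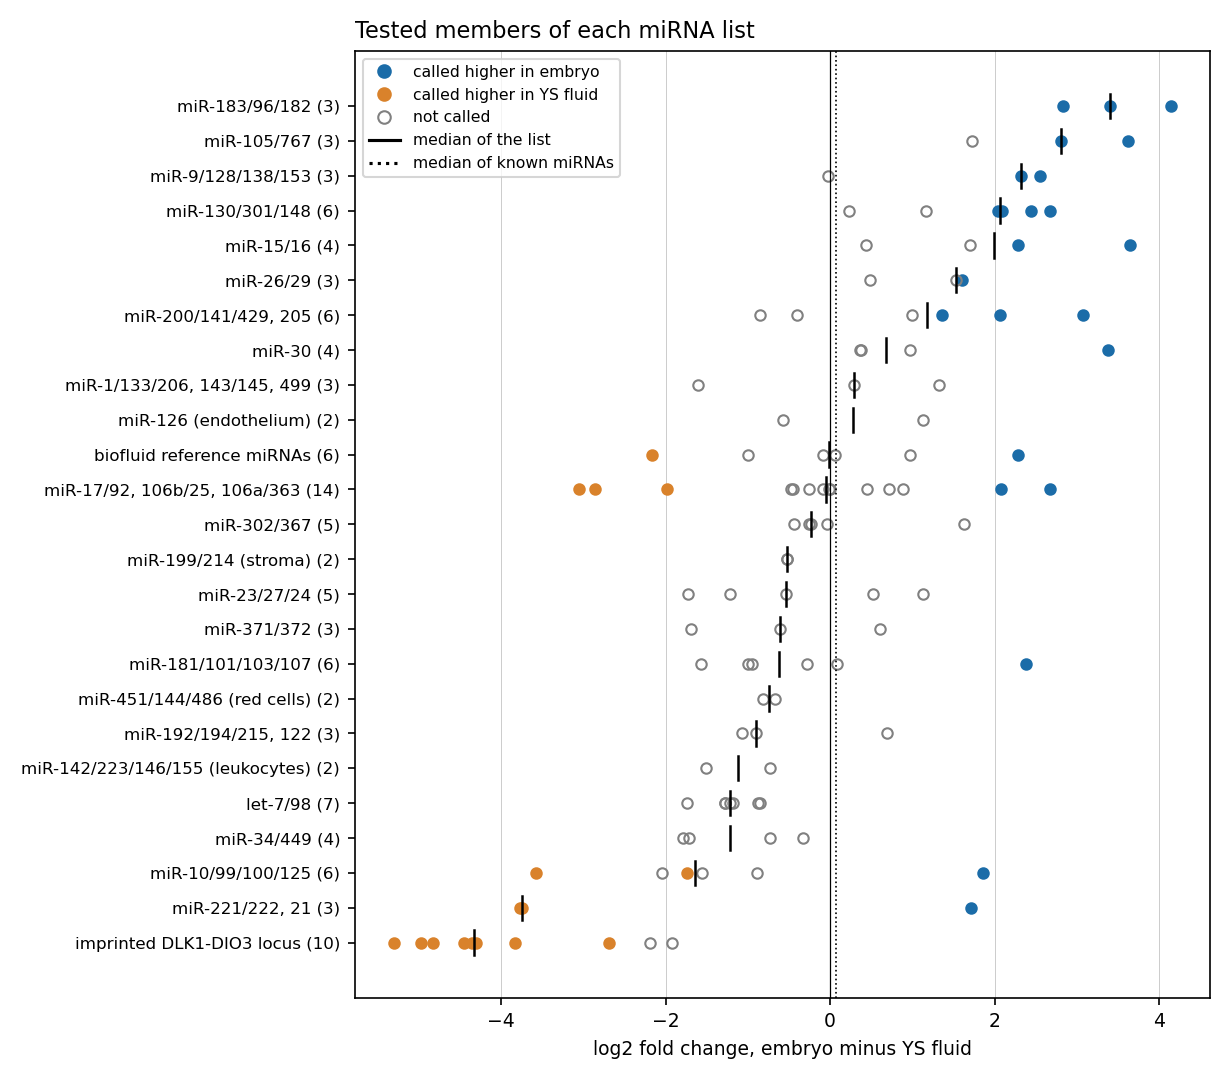
Log2 difference, embryo minus YS fluid, of the tested members of miRNA groups, with 1 point per miRNA, filled where called (blue for embryo, orange for YS fluid), and a bar at the median of each group. The imprinted miRNAs lie on the YS fluid side and the miR-183 cluster on the embryo side, while the miR-17 group has called members on both sides.

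The miR-17 group had called members on both sides. Of 14 tested, miR-19a and miR-106b were called higher in the embryos and miR-92a, miR-92b and miR-20b in YS fluid, against 29.4% of all known miRNAs called, and the median was -0.05. miR-106b averaged 1620 ± 439 CPM in the embryos and 370 ± 309 CPM in YS fluid (SD, n = 5; difference 2.08, SE 0.64, FDR 0.03). miR-17, miR-20a and miR-19b, made from the same transcript as miR-92a, differed by -0.45, 0.88 and 0.00 and were not called (FDR 0.405, 0.113 and 0.999). Of 27 groups of known miRNAs whose hairpins lie within 10000 bases of each other, 18 had a called member, and the cluster of miR-17, miR-18a, miR-19a, miR-20a, miR-19b and miR-92a was the only one with calls in both directions. The groups had 2 to 7 tested members each, and with 29.4% of known miRNAs called, many would hold a call at that rate. Larger groups also have more room for calls in both directions, and these counts are given as a description. miR-92a and miR-19b have a further copy in the X-linked cluster of miR-106a and miR-363, and the reads of the copies cannot be told apart. miR-17 and miR-106a had similar counts, 776 and 736 reads in the embryos and 508 and 494 in YS fluid. Whether the same reads were counted for both was not tested, so that they may not be 2 separate members.

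Ratios of reads within a library need no scaling between libraries, and several pairs of miRNAs with hairpins at one locus were set side by side in this way. The pairs were chosen after their values were seen, and no test was made. In YS fluid there were between 13.5 and 41.4 reads of miR-92a for each read of miR-17, and in the embryos between 3.70 and 6.54. Against miR-20a, the ratio was between 27.1 and 94.1 in YS fluid and between 2.10 and 4.84 in the embryos. In the X-linked cluster, miR-20b exceeded miR-106a by a ratio of 1.84 to 2.52 in every fluid and was below it, at 0.50 to 0.958, in every embryo. Because miR-106a and miR-17 may share reads, as given above, the locus of the reads of either is not certain. miR-200c to miR-141 gave 27.3 to 57.4 in YS fluid and 0.819 to 15.4 in the embryos, where embryo 1 had the highest value. miR-30c to miR-30e gave 1.48 to 3.70 and 0.184 to 0.611, but miR-30c, like miR-92a, has a further copy at another locus. None of these 5 ratios overlapped between the groups, whereas miR-200b to miR-200a did, at 3.85 to 8.50 in YS fluid and 2.49 to 4.37 in the embryos.

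**Figure D4:**
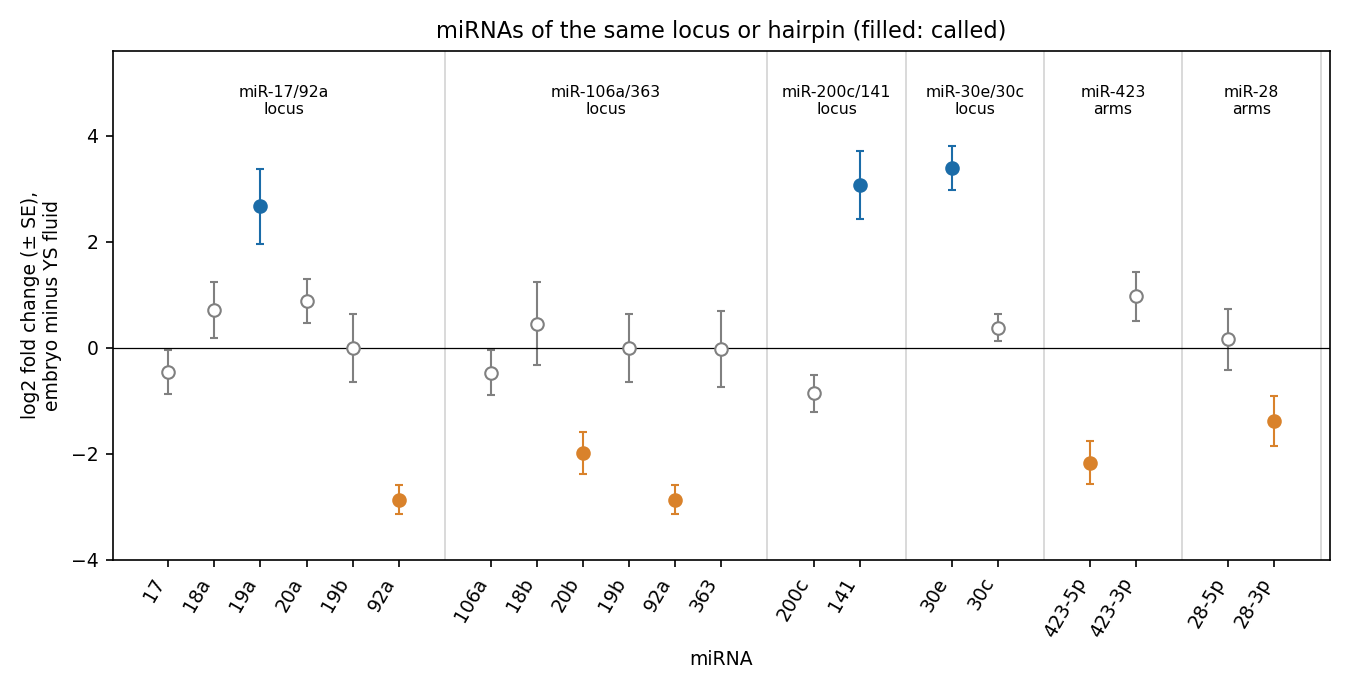
Log2 difference, embryo minus YS fluid, with its SE for miRNAs of the same locus or hairpin (filled blue, called higher in the embryos; filled orange, called higher in YS fluid; open, not called). miR-92a and miR-19a lie on opposite sides of 0 within a locus, and the arms of miR-423 lie apart.

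The arms of single hairpins were compared in the same way, for the 4 known hairpins with at least 50 reads on each arm. The 5′ arm of miR-423 took 23.0%, 21.4%, 22.2%, 23.6% and 15.3% of the reads of the hairpin in the embryos and 84.4%, 79.1%, 61.6%, 64.3% and 57.8% in YS fluid. The groups did not overlap, and each fluid had 28 or more reads of the hairpin. While miR-423-5p was higher in YS fluid, miR-423-3p was at 4489 ± 1652 CPM in the embryos and 2280 ± 1109 CPM in YS fluid (0.97, SE 0.46, FDR 0.11). The 5′ arm of miR-28 took 34.1% to 63.9% in the embryos and 11.4% to 37.2% in YS fluid, with overlap. miR-28-3p was called higher in YS fluid (-1.38, SE 0.47, FDR 0.0361), but not with the block (FDR 0.115). For miR-532 the pooled 5′ share was 96.3% and 96.5%, and for miR-340 it was 63.9% and 61.5%, the latter from 8 and 5 reads of the arms in YS fluid.

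let-7 miRNAs accumulate as cells differentiate and are held low in pluripotent cells by LIN28. All 7 members tested had a negative difference, between -0.85 and -1.74, and none was called (FDR 0.078 to 0.248, median difference -1.22). let-7a stood at 4302, 2534, 7989, 8965 and 9036 CPM in the embryos and at 9975, 6018, 11171, 39860 and 12843 CPM in YS fluid. YS fluid 4, the shallowest library, was the highest fluid for all 7 members. It was also far above the other fluids for miR-10a, with 11508 CPM against 1605 to 3025 CPM, for miR-34c and for miR-143. let-7 was far more abundant in the uterus, with summed levels of 388829 CPM in UF and 389401 CPM in endometrium of the pregnant mares before normalization, against 6620 to 19367 CPM in the embryos and 11166 to 83889 CPM in YS fluid. The part of uterine RNA in YS fluid 4 was not tested.

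None of the tested markers of blood, endothelium, muscle and connective tissue was called. The myeloid miR-223 had 3 reads over the embryos and none in YS fluid, and the leukocyte miRNAs miR-142-5p and miR-146a had 1 and 2 reads in the embryos and none in YS fluid. miR-155, of activated lymphocytes, had 19 and 25 reads (-1.51, SE 0.57, FDR 0.0513), and the immune miRNAs summed to 100.4 to 446 CPM in the embryos and 267 to 834 CPM in YS fluid, with 0 of 2 called. The summed erythroid miRNAs, led by miR-486-5p and miR-451, came to 158 to 347 CPM in the embryos and 219 to 1001 CPM in YS fluid, with overlap. Before normalization, pregnant UF held 1176 CPM of them and pregnant endometrium 6772 CPM. The endothelial miR-126 arms summed to 176 to 495 CPM in the embryos and 106 to 334 CPM in YS fluid. Of the smooth muscle miRNAs, miR-145 had 1 read in 1 embryo, while miR-143 had 47 reads in the embryos and 51 in YS fluid (FDR 0.0919). The muscle miRNAs, led by miR-499-5p with 107 and 42 reads, summed to 822 to 1882 CPM in the embryos and 955 to 3169 CPM in YS fluid, with 0 of 3 called. The mesenchymal miRNAs summed to 253 to 759 CPM in the embryos and 267 to 2168 CPM in YS fluid, with 0 of 2 called. The 2 tested, miR-199a-3p and miR-199b-3p, had the same counts, 40 reads in the embryos and 22 in YS fluid each. They repeat a single measurement, and these sums add it under both names. The erythroid and endothelial sums of YS fluid rested on 28 and 13 reads over the 5 libraries, and a difference between the groups was not detectable at this depth. The epithelial miRNAs, by contrast, summed to 127764 to 185080 CPM in the embryos and 47072 to 106013 CPM in YS fluid. The endoderm and liver miRNAs summed to 2465 to 12924 CPM in the embryos and 3669 to 16647 CPM in YS fluid. They were led by miR-192 and miR-122, the main miRNA of liver cells, with 0 of 3 called.

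In the miR-130, miR-301 and miR-148 group, 4 of 6 were called, all higher in the embryos, with a median difference of 2.07. miR-130a differed by 2.09 (SE 0.71, FDR 0.0361) and miR-301a by 2.44 (SE 0.73, FDR 0.0287), while miR-148b-3p was at 5807 ± 494 and 4957 ± 3439 CPM (FDR 0.692). In the miR-15 and miR-16 group 2 of 4 were called (median 1.99), and among the neural miRNAs 2 of 3, or 1 without YS fluid 2. Among all known miRNAs, 18.3% were called higher in the embryos. miR-9a, a miRNA of neural progenitors, stood at 19385, 18308, 11513, 13423 and 11119.8 CPM in the embryos and at 1760, 7021, 1679, 2502 and 1698 CPM in YS fluid (2.33, SE 0.48, FDR 0.0043). miR-138 rested on 42 and 3 reads (2.55, FDR 0.0355, and FDR 0.0667 without YS fluid 2). The other neural miRNA tested, miR-128, differed by -0.03 (FDR 0.969). miR-124, miR-137 and miR-219-5p of the same list had no read in either group, and miR-153 had 2. miR-10b, from a HOX gene cluster, was higher in the embryos (1.86, SE 0.50, FDR 0.0163), while its relative miR-10a differed by -0.89 (FDR 0.258) and miR-125a-5p and miR-99b of the same group were higher in YS fluid, the latter not with the block (FDR 0.0896). The median of this group was -1.65, with 3 of 6 called. Of the 6 miRNAs of the miR-181, miR-101 and miR-103 group, only miR-101 was called, higher in the embryos (2.39, SE 0.73, FDR 0.03, and FDR 0.0516 without YS fluid 2), and the median was -0.62. None of 5 members of the miR-23, miR-27 and miR-24 group (median -0.53) and none of 4 miRNAs of ciliated cells (median -1.22) was called.

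Predicted miRNAs accounted for 38 of the 91 calls. They carry no established name, and their sequences were not used here. Of the 116 with a read, only 55 had distinct counts, so that many calls repeat a single measurement. In embryo 1, 29 predicted miRNAs with 6 distinct count profiles were more than 10-fold above every other embryo and took 33.4% of its reads. With embryo 1, 20 of the 29 were called, and without it 0 were. The largest differences that did not depend on this sample were higher in YS fluid. pred-miR-131, whose counts pred-miR-132 repeats, stood at 2096, 2808, 2993, 4169 and 1433 CPM in YS fluid and at 96.7, 127, 60.8, 49.5 and 25.1 CPM in the embryos (-5.13, SE 0.64, FDR 0.000179). pred-miR-30 stood at 3185, 1872, 438, 1001 and 4511 CPM in YS fluid and between 25.1 and 60.8 CPM in the embryos (-5.52, SE 0.78, FDR 0.000507). pred-miR-81 had 54 reads in YS fluid, seen in all 5, and none in any embryo, at least 59.8-fold higher in YS fluid. The largest difference in the other direction was that of pred-miR-136, at 772 ± 223 CPM in the embryos and 189 ± 46.8 CPM in YS fluid (1.97, SE 0.51, FDR 0.0143).

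Embryos resembled each other more than fluids did. Over the 106 known miRNAs with at least 50 reads, Spearman's rho between embryos was 0.894 to 0.973 (median 0.938, 10 pairs) and between fluids 0.712 to 0.940 (median 0.85, 10 pairs). The fluids were shallower, and these values describe libraries that also differ in depth. YS fluid 2 had the lowest mean rho with the other fluids, 0.775, followed by YS fluid 4 with 0.805. An embryo and the fluid of the same number had a median rho of 0.752 (5 pairs), and an embryo and a fluid of different numbers 0.743 (20 pairs).

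The uterus gave a second setting with a fluid and a tissue, extracted with the same kits. Whether the difference between YS fluid and embryo departed from that between UF and endometrium of pregnant mares was tested as an interaction over 20 libraries. Of 400 miRNAs tested, 134 were called (33.5%), 75 more toward the fluid in the conceptus and 59 less, and of 273 known miRNAs 84 were (30.8%). Predicted miRNAs made up 36 of the 59. Without embryo 1, 92 were called, 64 more toward the fluid and 28 less, and 7 of the 28 were predicted. With the conceptus and mare number as a block, 87 were called. For the 106 known miRNAs with at least 50 reads in the conceptus, the fluid minus tissue differences at the 2 sites had a Spearman's rho of 0.223 and a Pearson's r of 0.113 across miRNAs, which are not independent and share the kits, and 62 had the same sign. Of these 106 miRNAs, 52 were called in the conceptus and 19 in the uterus. Both sites called 9, which is 17.3% of the 52 and 47.4% of the 19. That is about the number that 52 and 19 of 106 would share if calls at the sites were unrelated. Of the 9, 7 had the same direction, among them miR-92b, higher in both fluids, and miR-148a, miR-9a and miR-10b, higher in both tissues. The interaction was called for 43 of the 106.

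miR-92a was 2.85 higher in YS fluid than in the embryos on this scale and 0.34 higher in UF than in endometrium, an interaction of 2.51 (SE 0.39, FDR 0.000251). miR-125a-5p was 3.68 higher in YS fluid and 0.62 lower in UF (interaction 4.31, SE 0.81, FDR 0.000718). miR-423-5p was 2.15 and 0.31 higher in the fluids (1.85, SE 0.55, FDR 0.0144, and FDR 0.0597 with the block). Among known miRNAs with at least 50 reads in the conceptus, the largest interactions toward YS fluid were those of the imprinted miR-432 (8.49, SE 1.41), miR-409-3p (7.88, SE 1.32) and miR-380 (7.55, SE 1.74), which were 5.08, 4.57 and 5.65 higher in YS fluid and 3.41, 3.31 and 1.90 lower in UF. Without YS fluid 2 these 3 interactions were 6.31, 5.17 and 4.20. miR-143, a miRNA of smooth muscle and stroma, was 1.42 higher in YS fluid (FDR 0.132, not called) and 3.70 lower in UF (FDR 0.000381). Its interaction was 5.12 (SE 0.97). In the opposite direction and by the same rule, miR-362-5p (-3.66), miR-340-3p (-3.56), miR-22 (-3.43) and miR-335 (-3.07) were lower in YS fluid than in the embryos, with UF minus endometrium differences between 0.12 and 0.73. miR-767-5p had an interaction of -5.19 (SE 1.60, FDR 0.0274, and FDR 0.0902 with the block), but it had no read in the endometrium, so that the uterine side of this value has no scale.

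**Figure D5:**
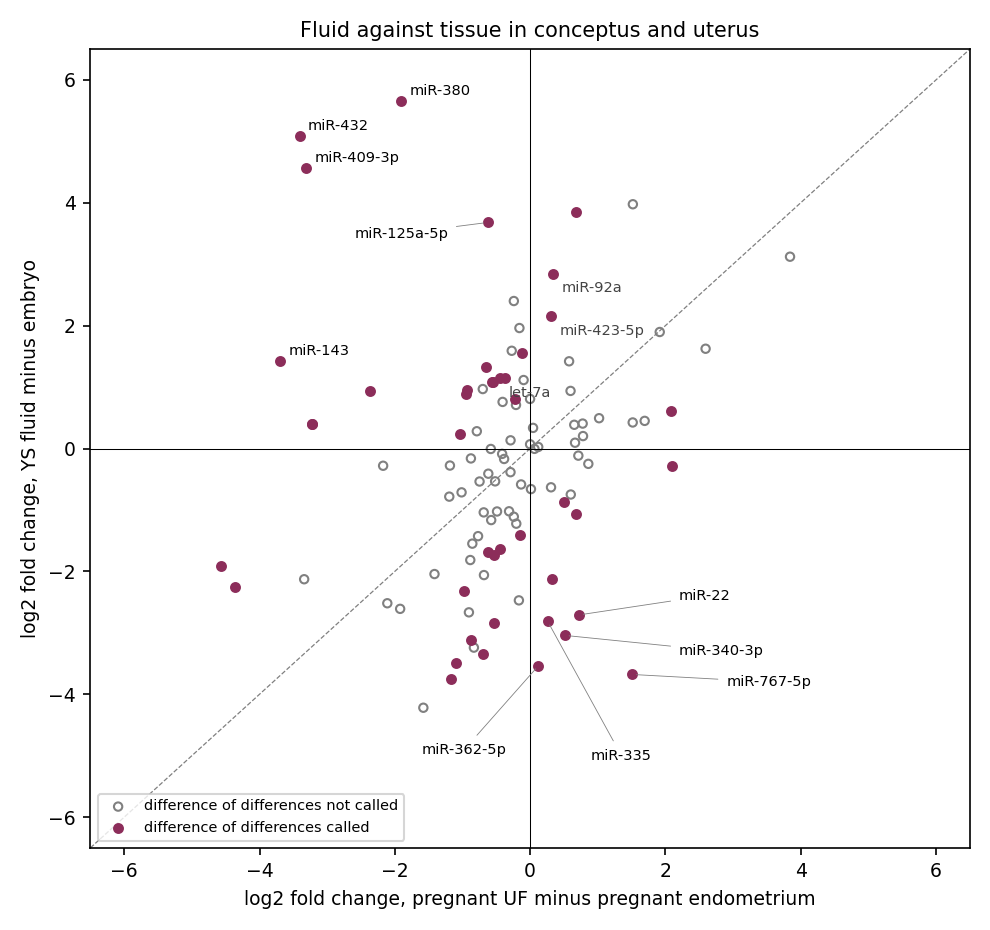
Log2 difference of YS fluid minus embryo (y axis) against pregnant UF minus pregnant endometrium (x axis) for 106 known miRNAs with at least 50 reads in the conceptus, with filled points where the difference of the differences was called. miR-92a, miR-125a-5p and miR-423-5p lie high on the y axis and near 0 on the x axis, while miR-432, miR-409-3p and miR-380 lie on opposite sides of 0 on the axes.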

How the data were processed

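Small RNA libraries of 5 embryos and 5 YS fluids, and of 5 pregnant endometria and 5 pregnant UF as a reference, were used. The authors trimmed adapters with cutadapt 1.11, used miRPro to count reads on the miRBase miRNAs of the horse and to predict others on EquCab2.0, and deposited raw read counts per mature miRNA (690 known and 154 predicted) without normalization. The treatment of reads with several matches is not given in the sources used here. The counts of predicted precursors repeated those of the predicted miRNAs and were used only to check this.

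Counts of known and predicted miRNAs were fitted together in R 4.3.3 with edgeR 4.0.16. A miRNA entered the fit if 5 or more libraries reached 1 CPM. After TMM normalization, the quasi-likelihood test was run without a block and adjusted by Benjamini-Hochberg (FDR). Values are TMM-normalized CPM. SE is the difference divided by the square root of F. Shares and numbers of miRNAs were compared by two-sided exact permutation tests. The labels' numbers were taken as the mare, since the study pairs samples by mare, and the number was a block in an alternative. Deviations from the group means of same-numbered embryos and fluids correlated at -0.02 to 0.17 over 106 miRNAs. The study describes 5 mares, with the mare as the experimental unit. The scripts were tested on simulated data.

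The comparison, the members and the miRNA lists were chosen with earlier results of these data known. Named are the 10 most abundant known miRNAs of each group, the 12 that changed most in each direction among called known miRNAs with at least 50 reads and no overlap, list members with at least 10 reads, the 3 predicted miRNAs of largest change in each direction, hairpins with 50 reads on each arm, and the 5 largest interactions in each direction among called known miRNAs with at least 50 reads in the conceptus. Other miRNAs with fewer reads were named after their values were seen. Hairpin neighbours were taken from the RefSeq annotation of another assembly (TB-T2T), in which 283 of 285 known miRNAs were found. Alternatives were RLE size factors, library totals, no filter, filterByExpr (minimum count 10), the likelihood ratio test, DESeq2 1.42.0, 28 libraries in a single fit, the FDR alone, known miRNAs only, near-identical predicted miRNAs merged, thinned libraries, the block, and each library or number left out. Further alternatives were added after seeing the data, namely embryo 1 left out together with known miRNAs only, with RLE size factors, or with YS fluid 2.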

Additional observations from a re-analysis of the deposited data

Results flagged for a closer look

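Among the named miRNAs, 68 groups of 5 libraries were examined for a sample far from the others, and 8 had one. The miRNAs were chosen from these data and are not independent, so this count was not set against chance. YS fluid 2 was high for miR-371-5p (138074 CPM, others 2813 to 10173), miR-372 (81574, others 1751 to 6004), miR-221 (13640, others 637 to 1334), miR-92b (5884, others 511 to 1334) and miR-409-3p (4480, others at most 334). YS fluid 3 was high for miR-20b (27306 CPM, others 9506 to 13267) and miR-200a (13945, others 3669 to 6368), and embryo 4 for miR-371-5p (30859, others 1885 to 9915). Embryo 1 had 36.3% of its reads on predicted miRNAs, where the other embryos had 5.02% to 8.67%. Embryo 2 had 21.7% of its reads on its most abundant miRNA, miR-21, where the others had 11.2% to 13.4%.

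The fluid minus tissue difference departed between conceptus and uterus, by the test of the interaction, for 134 miRNAs (92 without embryo 1). Of the named ones, miR-432 (8.49), miR-409-3p (7.88), miR-380 (7.55), miR-143 (5.12) and miR-125a-5p (4.31) were more toward the fluid in the conceptus than in the uterus. Those less toward the fluid were miR-767-5p (-5.19), miR-362-5p (-3.66), miR-340-3p (-3.56), miR-22 (-3.43) and miR-335 (-3.07), all on the log2 scale.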

How the results depend on the processing

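The number of miRNAs called between embryo and YS fluid, 91, was 40 with filterByExpr, 44 with thinned libraries, 57 with known miRNAs only and without embryo 1, 140 in a single fit of 28 libraries, and 40 to 90 with a library or number left out. With the replicate number as a block it was 54. The interaction count, 134, was 87 with the block, 72 with filterByExpr and 92 to 126 with a library left out. Of 1091 values of 44 named results under the alternatives, 1029 kept direction and side of the threshold, 34 kept the direction but lost the call, 17 gained a call and 11 reversed. Those that reversed had not been called. miR-371-5p was 0.80 without YS fluid 2, 0.98 without number 2 and 0.82 without embryo 1 and YS fluid 2. miR-372 was 1.66, 1.56 and 1.60 there, and 0.57 with the block. With a library or number left out, they ranged from -3.20 to 0.98 and from -1.46 to 1.66. miR-30d was -0.30 with library totals, -0.064 with filterByExpr, -0.040 in the single fit and -0.14 with thinned libraries. Of the 34, 7 were of miR-335, 7 of pred-miR-136, 5 of miR-340-3p, 4 of miR-200b and 3 of miR-362-5p. The block took the calls of 11 of the 53 known miRNAs, 4 higher in the embryos and 7 in YS fluid, among them miR-92b, and the interactions of miR-767-5p and miR-423-5p. The difference in the share of the 10 most abundant miRNAs ranged from -0.82 to 4.17 percentage points with a library left out, that of predicted miRNAs from 1.77 (without embryo 1, exact permutation p = 0.0952) to 9.60, and that of the number of miRNAs at equal depth from -28.9 to -21.4. The causes were not tested. Depth limits every statement on miRNAs with fewer than 3 reads in a YS fluid library. After TMM normalization that limit was 159 CPM in YS fluid 5 and 500 CPM in YS fluid 4.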
